A study of Arabidopsis thaliana with 12 samples.

Results

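Wild-type seedlings of Arabidopsis thaliana grown on the chemical 3-bromo-7-nitroindazole (3B7N) were compared directly with seedlings of the double mutant cry1cry2 grown without it. The comparison took 6 of the 12 samples, 3 of each group, chosen by their genotype and treatment labels. Treated wild type was Col-0 sown on medium with 15 µM 3B7N, and the untreated mutant was cry1cry2 sown on medium with the solvent dimethyl sulfoxide (DMSO). After 3 days of cold and darkness all seeds were moved to continuous blue light, at 5 µmol m-2 s-1, and the seedlings were collected 4 days later. The labels do not name the alleles of cry1cry2. Untreated wild type, Col-0 on DMSO, is the point from which both groups depart, and its 3 samples and those of cry1cry2 on 3B7N are given beside the comparison as values. The labels leave unsaid if replicate samples were grown as separate cultures; p-values below therefore measure only the spread between these samples, which may be technical. In such bulk samples, fewer cells of a type and less RNA per cell cannot be told apart.

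Cryptochromes 1 and 2 are blue-light receptors. When lit, they restrain the COP1 and SPA ubiquitin ligase, so that transcription factors such as HY5 accumulate, and they bind PIF transcription factors that promote elongation; the seedling stays short, greens and makes flavonoids. A seedling that lacks both receptors grows in blue light with a long hypocotyl. The chemical 3B7N belongs to the nitroindazoles, which are known in animals as inhibitors of nitric oxide synthase. The study is about chemicals that change hypocotyl length in wild type, and the comparison here asks where wild type on 3B7N stood at, short of, beyond or apart from the level of the untreated mutant.

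RNA of each sample was read on 1 one-colour Agilent array, and each level below is a log2 signal relative to the 75th percentile of its own array, so that a difference of 1 is 2-fold. The 75th percentile itself was lowest on treated wild type replicate 2, at 883 signal units, and highest on untreated mutant replicate 1, at 6794, and all 3 mutant arrays were above all 3 treated wild-type arrays. Probes well above background made up 64.3% to 81.0% of an array, and no spot was saturated. Slide 2 held 2 arrays of each group; treated wild type replicate 1 lay on slide 1 with all 3 arrays of untreated wild type, and untreated mutant replicate 3 on slide 3 with all 3 arrays of cry1cry2 on 3B7N. CRY1 (AT4G08920) stood at 3.58, 3.86 and 3.70 in treated wild type and -8.73, -9.85 and -7.90 in the untreated mutant, and CRY2 (AT1G04400) at 2.48, 2.36 and 2.49 in treated wild type and -8.70, -8.76 and -8.59 in the untreated mutant. Both receptor genes were thus far lower on every array labelled cry1cry2, where each probe was well above background on 1 of 3 arrays of the untreated mutant, while treated wild type differed from untreated wild type by 0.29 for CRY1 and 0.44 for CRY2.

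Of 20487 genes tested, 1240 (6.05%) were higher and 1081 (5.28%) lower in treated wild type than in the untreated mutant, at a Benjamini-Hochberg adjusted p under 0.05 and at least 2-fold; such genes are called below. For 13343 genes (65.1%) the 95% interval of the difference lay wholly within 2-fold either way, and the median difference was -0.01. The called genes fell into 3 positions relative to untreated wild type. Treated wild type lay between untreated wild type and the mutant for 949, of which 640 were higher and 309 lower than the mutant. The mutant lay between the 2 wild-type groups for 292, of which 147 were higher and 145 lower. Untreated wild type lay between the other groups for 1080, of which 453 were higher and 627 lower. These positions follow the order of the group means alone, with no minimum step. A gene can thus be counted in the last position although treatment hardly moved it. The arginase gene ARGAH1 is counted there, and its treated wild type differed from untreated wild type by only 0.01. Within slide 2 all 2321 called genes differed in the same direction as over all arrays, and 2035 by at least 2-fold; those 4 arrays are among the 6 that made the calls.

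**Figure D1:**
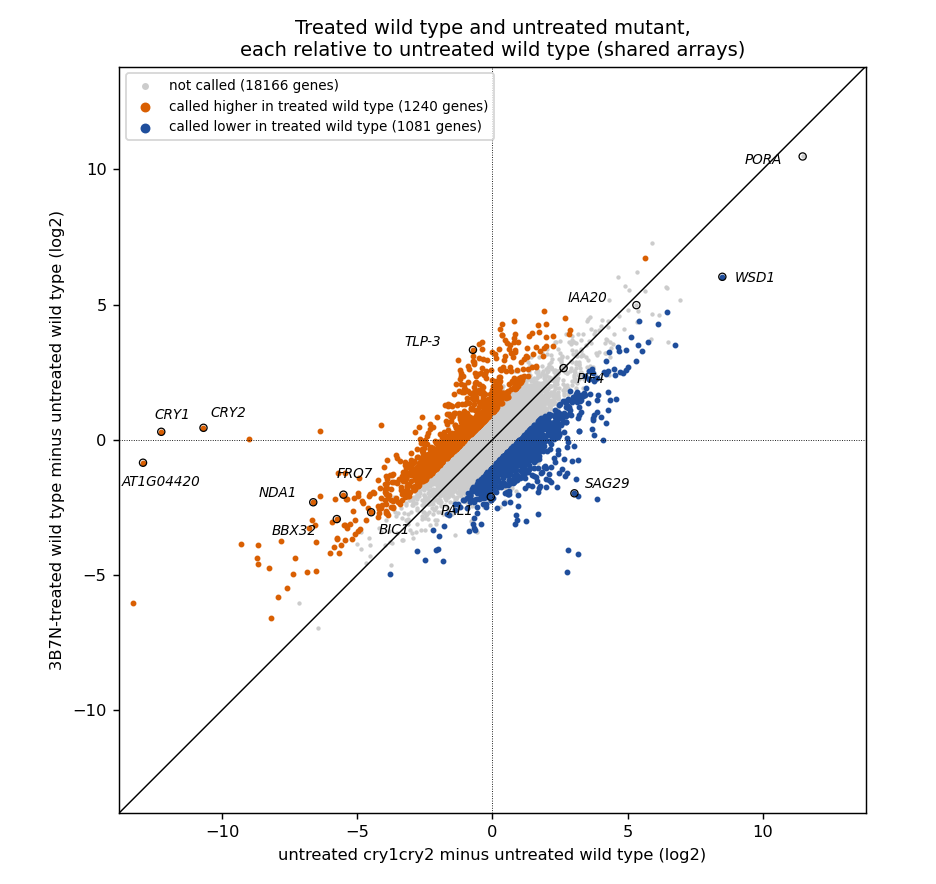
Each point is 1 of 20487 genes, with the log2 difference of untreated cry1cry2 from untreated wild type on the horizontal axis and that of 3B7N-treated wild type from untreated wild type on the vertical axis. Points on the diagonal have the same level in treated wild type and mutant; the 1240 genes called higher in treated wild type (orange) lie above it and the 1081 called lower (blue) below it, and both axes share the arrays of untreated wild type.

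PIF4 and PIF5, the elongation-promoting bHLH factors, stood at the mutant's level in treated wild type. PIF4 (AT2G43010) read 3.59, 3.20 and 3.15 in treated wild type, 3.01, 3.72 and 3.2 in the untreated mutant and 0.53, 0.84 and 0.62 in untreated wild type. Treated wild type and mutant overlapped on the arrays and lay above all 3 arrays of untreated wild type, with a difference between them of 0.02 ± 0.22 (SE) and a 95% interval of -0.48 to 0.51. PIF5 (AT3G59060) read 1.5, 1.69 and 1.35 in treated wild type, 1.39, 1.74 and 1.42 in the untreated mutant and -0.10, -0.47 and 0.24 in untreated wild type. The same order held for it, with an interval of -0.42 to 0.41. The atypical Aux/IAA gene IAA20 (AT2G46990) read 0.81, -0.07 and 0.46 in treated wild type, 0.52, 0.63 and 1.09 in the untreated mutant and -5.09, -4.13 and -4.52 in untreated wild type. Its 2 high groups overlapped, with a difference of -0.35 ± 0.28 and an interval of -0.96 to 0.26.

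In all, 295 genes within 2-fold between treated wild type and mutant were called higher than untreated wild type in both. A further 516 were called lower in both. Opposite calls could not occur in this set, as each call needs at least 2-fold and both groups lie within 2-fold of each other. Over all genes 5.89% were called higher and 9.09% lower in treated wild type than in untreated wild type, and 7.62% and 11.4% in the mutant. Both contrasts share the untreated wild-type arrays, so these counts describe the arrays and were not tested. Among the genes furthest above untreated wild type were ST2A (AT5G07010), a sulfotransferase that acts on hydroxyjasmonate, at 0.77, 0.30 and 0.64 in treated wild type and 0.26, 0.88 and 0.27 in the untreated mutant against -3.15, -2.92 and -3.20 in untreated wild type, and TSPO (AT2G47770), a membrane protein that binds porphyrins, at 4.08, 3.86 and 3.61 in treated wild type and 3.57, 4.17 and 3.62 in the untreated mutant against 0.25, 0.70 and 0.57. Treated wild type and mutant overlapped for both, and the intervals of their difference were -0.50 to 0.71 and -0.38 to 0.52. HSD5, WRKY71 and the lipase gene MPL1 also lay within 2-fold, with differences from -0.41 to -0.07. On the low side, PPT2 (AT3G01550), a plastid phosphoenolpyruvate translocator, read -4.57, -4.56 and -4.67 in treated wild type and -4.91, -4.61 and -4.62 in the untreated mutant against 0.03, -0.47 and 0.36 in untreated wild type. Its treated and mutant arrays lay together and more than 4 log2 units under every untreated wild-type array. The chloroplast envelope gene OEP6, the lignin gene FAH1 (AT4G36220), the cytokinin response regulator ARR7, CRK21 and GSTU23 were also low in both, with differences between treated wild type and mutant from -0.12 to 0.55.

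Several genes that cryptochrome signalling is known to raise came down in treated wild type without reaching the mutant's level. BIC1 (AT3G52740), whose product binds lit cryptochromes and inhibits them, read -0.63, -1.09 and -0.55 in treated wild type, -2.48, -2.89 and -2.30 in the untreated mutant and 1.82, 1.95 and 2.01 in untreated wild type. All 3 treated arrays lay above every mutant array and under every untreated wild-type array, and the difference from the mutant was 1.80 ± 0.18 (adjusted p = 6.18e-05). Its relative BIC2 (AT3G44450) differed by 0.83 ± 0.21, under the 2-fold line, with treated wild type at -4.05 from untreated wild type. RUP2, a repressor of the UV-B receptor, was 1.34 ± 0.19 above the mutant (adjusted p = 0.000563).

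B-box factors showed the widest gaps among regulators of photomorphogenesis. BBX32 (AT3G21150), a repressor of light signalling, read -1.41, -0.16 and -1.16 in treated wild type, -3.45, -3.55 and -4.19 in the untreated mutant and 1.88, 1.93 and 2.27 in untreated wild type. The groups did not overlap and the difference was 2.82 ± 0.37 (adjusted p = 0.00037). BBX25 (AT2G31380), another B-box repressor, read 0.90, 1.07 and 1.31 in treated wild type and -0.62, -0.35 and -0.77 in the untreated mutant. The treated arrays stood 1.67 ± 0.22 above the mutant and at -0.74 from untreated wild type, which they overlapped. BBX30, a small B-box protein, differed by 2.86 ± 0.49, SPA3, a partner of COP1, by 1.11 ± 0.15, and HYH, the HY5 homologue, by 1.17 ± 0.19; the HYH call was lost without untreated mutant replicate 2, at 0.97. BBX23 (AT4G10240) ran the other way and read -7.59, -7.57 and -6.62 in treated wild type and -3.84, -5.25 and -4.03 in the untreated mutant, with 1 of 3 treated arrays well above background. It differed by -2.89 ± 0.51, and by -0.91 with no call under normexp background correction. HY5 itself read 1.16, -0.09 and 0.35 in treated wild type and 0.44, 0.41 and 1.23 in the untreated mutant, with overlapping groups and an interval of -0.94 to 0.50, and COP1 differed by -0.14 ± 0.18.

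Of 18 photoreceptor and receptor-inhibitor genes tested, 6 were higher and 0 lower, against 6.05% and 5.28% of all genes. They were CRY1, CRY2, BIC1, RUP2, the phototropin gene PHOT2 (1.16 ± 0.18, with kept probes from -0.31 to 1.16) and the blue-light clock receptor gene ZTL (1.11 ± 0.15). The calls of CRY1 and CRY2 follow from the mutant's genotype. Of 25 regulators of photomorphogenesis, 5 were higher, 1 was lower and 11 lay within 2-fold, the last against 65.1% of all genes. Without treated wild type replicate 2 the higher count was 8, and without untreated mutant replicate 2 the higher and lower counts were 7 and 2. All 6 called regulators had treated wild type between untreated wild type and mutant.

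**Figure D2:**
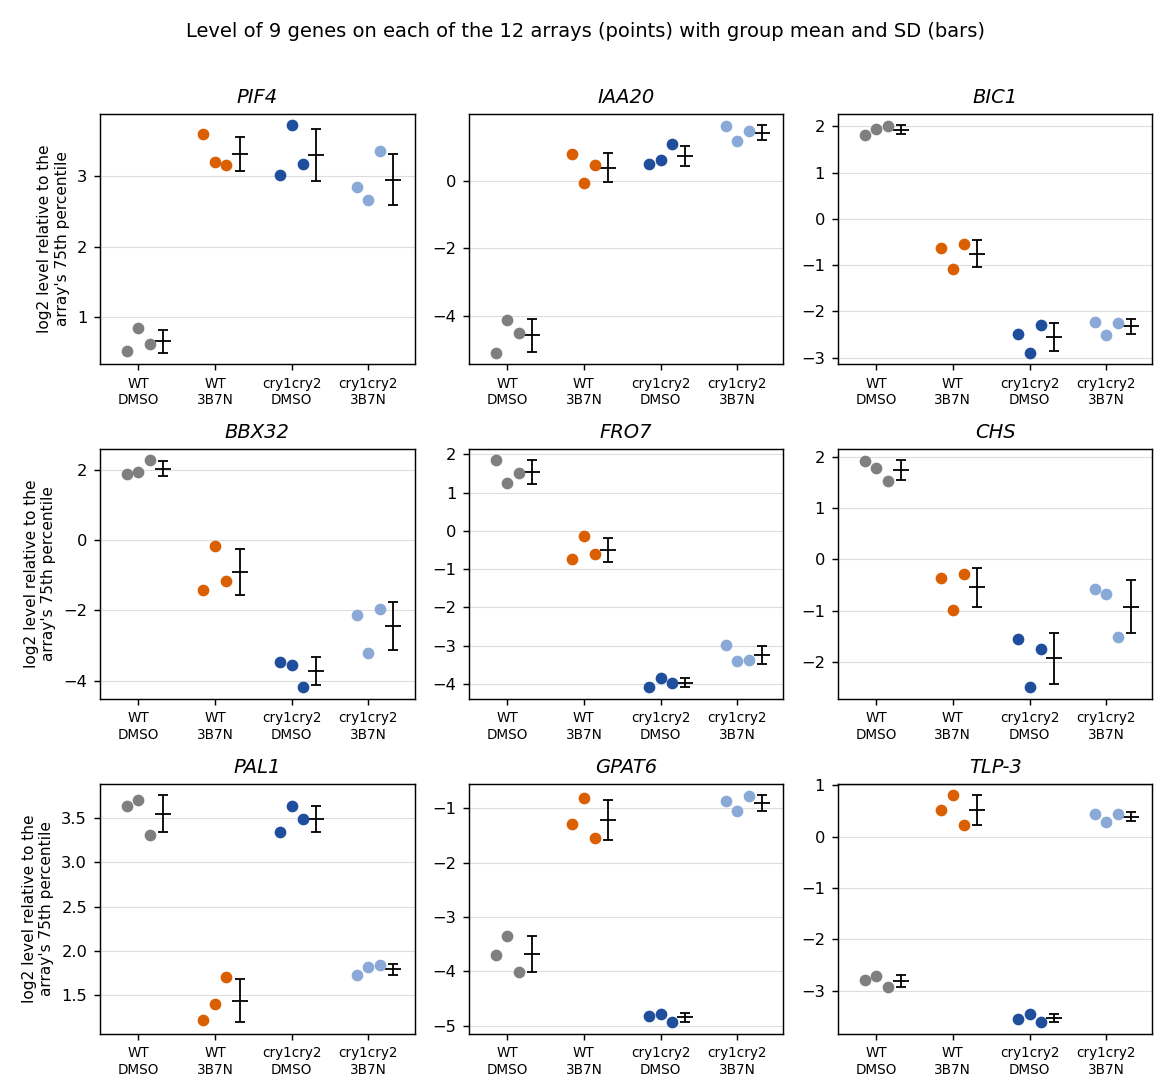
Each panel gives the log2 level of 1 gene relative to the 75th percentile on all 12 arrays (points), with the mean and SD of each group of 3 (bars). PIF4 and IAA20 overlap between treated wild type and untreated cry1cry2; BIC1, BBX32, FRO7 and CHS have treated wild type between the 2 DMSO groups; PAL1, GPAT6 and TLP-3 have it outside them.

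FRO7, FRO6, NDA1 and FBA5 were higher in treated wild type than in the mutant and lower than in untreated wild type. FRO7 (AT5G49740), the chloroplast ferric reductase, read -0.74, -0.14 and -0.61 in treated wild type, -4.09, -3.84 and -3.99 in the untreated mutant and 1.85, 1.24 and 1.52 in untreated wild type. FRO6 (AT5G49730), a related ferric reductase, read 0.48, 1.0 and 0.67 in treated wild type, -2.26, -2.02 and -2.30 in the untreated mutant and 3.20, 2.49 and 2.69 in untreated wild type. For both genes the 3 groups were separate, and treated wild type lay 3.48 ± 0.20 and 2.91 ± 0.20 above the mutant (adjusted p = 1e-06 and adjusted p = 2.66e-06). NDA1 (AT1G07180), an internal NADH dehydrogenase of mitochondria that light induces, read 0.54, 0.59 and 0.26 in treated wild type, -4.05, -3.42 and -4.08 in the untreated mutant and 3.21, 2.28 and 2.85 in untreated wild type. FBA5 (AT4G26530), a cytosolic aldolase, read 2.85, 3.58 and 2.84 in treated wild type, -1.37, -0.54 and -1.69 in the untreated mutant and 5.09, 5.56 and 4.87 in untreated wild type. The NDA1 difference was 4.31 ± 0.25 (adjusted p = 1.08e-06) and the FBA5 difference 4.29 ± 0.33 (adjusted p = 8.43e-06), again with no overlap.

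CIPK20, a protein kinase regulated by calcium sensors, differed by 4.24 ± 0.29 and read -2.59, -3.15 and -2.21 in treated wild type and -6.79, -6.77 and -7.10 in the untreated mutant, and UGT74C1, a glucosyltransferase of glucosinolate synthesis, differed by 2.38 ± 0.15. Both were under untreated wild type, by -1.23 and -1.99, in treated wild type.

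The vacuolar iron transporter gene VIT1 (AT2G01770) ran in the reverse direction and read -2.64, -3.34 and -2.79 in treated wild type, -1.36, -0.98 and -0.99 in the untreated mutant and -7.94, -7.07 and -6.66 in untreated wild type; it was raised in treated wild type but stayed -1.82 ± 0.35 from the mutant (adjusted p = 0.00355). The ferritin genes FER1 and FER3 were 1.16 ± 0.18 and 1.21 ± 0.24 above the mutant; without untreated mutant replicate 1 FER1 fell to 0.97, and without treated wild type replicate 2 FER3 fell to 0.90. Of 21 iron genes tested, 4 were higher and 1 was lower, against 6.05% and 5.28% of all genes. Leaving out both the dimmest and the brightest array left 2 higher, 7 were higher under median scaling, and 6 without treated wild type replicate 3 or untreated mutant replicate 2.

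CHS and F3H, enzymes of early flavonoid synthesis, were ordered across the groups as BIC1 was. CHS (AT5G13930), chalcone synthase, read -0.38, -0.98 and -0.28 in treated wild type, -1.55, -2.5 and -1.75 in the untreated mutant and 1.92, 1.77 and 1.53 in untreated wild type. F3H (AT3G51240), flavanone hydroxylase, read -0.45, -0.57 and -0.96 in treated wild type, -2.10, -2.51 and -1.73 in the untreated mutant and 1.32, 0.99 and 0.85 in untreated wild type. Every treated array was above every mutant array and under every untreated wild-type array for both genes, with differences of 1.39 ± 0.30 (adjusted p = 0.00612) and 1.45 ± 0.23 (adjusted p = 0.00108). MYB12, a flavonol regulator, was 1.08 ± 0.20 above the mutant, and without treated wild type replicate 3 or untreated mutant replicate 2 it was 0.90 and 0.97. MYB75, the anthocyanin regulator also called PAP1, stood -2.35 ± 0.52 under the mutant, and it was not well above background on any array of untreated wild type.

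PAL1, PAL4, 4CL1 and 4CL2 were the called genes among 7 of the list for the entry steps of the phenylpropanoid pathway, and all 4 were lower in treated wild type than in the mutant. PAL2, C4H and 4CL3 were not called, at -0.88 ± 0.12, -0.29 ± 0.16 and -0.82 ± 0.50. PAL1 (AT2G37040), a phenylalanine ammonia-lyase, read 1.22, 1.39 and 1.70 in treated wild type, 3.34, 3.63 and 3.49 in the untreated mutant and 3.64, 3.70 and 3.31 in untreated wild type. The mutant and untreated wild type overlapped, and treated wild type lay under both, -2.05 ± 0.16 from the mutant (adjusted p = 7.72e-06). PAL4 (AT3G10340), another ammonia-lyase, read -0.52, -0.10 and -0.15 in treated wild type, 2.17, 2.36 and 1.97 in the untreated mutant and 1.25, 1.16 and 1.0 in untreated wild type. 4CL1 (AT1G51680), which makes coumaroyl-CoA, read 1.27, 0.98 and 1.32 in treated wild type, 3.07, 3.48 and 3.25 in the untreated mutant and 2.68, 2.76 and 2.58 in untreated wild type. The differences were -2.43 ± 0.16 and -2.08 ± 0.17 (adjusted p = 2.06e-06 and adjusted p = 1.45e-05), and the mutant stood above untreated wild type by 1.03 and 0.60.

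4CL2 differed by -1.48 ± 0.17, the chalcone isomerase gene TT5 by -1.22 ± 0.17, the flavonol regulator MYB111 by -1.65 ± 0.30 and the anthocyanin gene DFR by -2.06 ± 0.51; DFR lost its call without untreated mutant replicate 3, at -1.83, and with normexp, at -0.29. On the arrays of cry1cry2 on 3B7N, PAL1 read 1.72, 1.82 and 1.84, PAL4 -0.44, -0.24 and -0.17 and 4CL1 1.17, 1.77 and 1.38, all under every array of either DMSO group. Of 29 flavonoid and phenylpropanoid genes tested, 3 were higher and 8 lower, against 6.05% and 5.28% of all genes. The list's median, -0.13, changed sign between settings, so only its counts are used.

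Growth-related regulators that were high in the mutant included several that stayed lower in treated wild type. In the PIF and shade list, 7 of 25 were lower, 0 higher and 14 within 2-fold, with a median of -0.43. Among all genes the shares were 5.28%, 6.05% and 65.1%. PRE5 (AT3G28857), a growth-promoting bHLH protein without a DNA-binding region, read -4.35, -3.87 and -3.36 in treated wild type, -2.68, -1.69 and -2.0 in the untreated mutant and -6.64, -5.90 and -6.37 in untreated wild type. Treated wild type lay between the other groups without overlap, -1.73 ± 0.36 from the mutant (adjusted p = 0.00479). IBH1 (AT2G43060), a bHLH protein that restrains the same growth pathway, read -1.25, -1.54 and -0.90 in treated wild type, 0.52, -0.05 and 0.75 in the untreated mutant and -1.37, -1.22 and -1.28 in untreated wild type. Its treated arrays overlapped untreated wild type and lay -1.64 ± 0.21 under the mutant. PIL1, a shade-responsive bHLH gene, differed by -1.36 ± 0.37, the PRE5 relative PRE2 by -1.1 ± 0.18 and FHY1 (AT2G37678), the carrier of phytochrome A into the nucleus, by -1.06 ± 0.21. The list's lower count was 4 without treated wild type replicate 2, 3 without untreated mutant replicate 3, 4 under median scaling or with slide as a fixed block, and 3 with normexp or without the dimmest and the brightest array.

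Among 24 wall-expansion enzymes, 6 were lower, 0 higher and 5 within 2-fold, against 5.28%, 6.05% and 65.1% of all genes. The list's median was -0.59, and all 6 lower genes had treated wild type between untreated wild type and mutant. XTH33 (AT1G10550), a xyloglucan endotransglucosylase, read -2.90, -3.02 and -2.66 in treated wild type, -0.53, -2.14 and -1.11 in the untreated mutant and -4.38, -3.67 and -4.09 in untreated wild type. EXPA3 (AT2G37640), an expansin, read 1.85, 1.94 and 1.92 in treated wild type, 3.07, 3.36 and 3.43 in the untreated mutant and 1.74, 1.72 and 1.65 in untreated wild type. Treated wild type stood -1.60 ± 0.33 and -1.38 ± 0.16 from the mutant with no overlap (adjusted p = 0.00482 and adjusted p = 0.000157), and EXPA3 lay only 0.20 above untreated wild type. XTH19 differed by -1.75 ± 0.38, XTH17 by -1.89 ± 0.44 and EXPA11 by -1.16 ± 0.23. With slide as a fixed block the list's lower count was 3.

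In hormone synthesis, BR6OX1 (AT5G38970), a late brassinosteroid oxidase, read -3.55, -4.26 and -3.42 in treated wild type, -2.02, -2.45 and -1.84 in the untreated mutant and -4.17, -3.63 and -3.83 in untreated wild type. It was raised in the mutant and not in treated wild type, with a difference of -1.64 ± 0.25 (adjusted p = 0.000834). BR6OX2 differed by -1.60 ± 0.35 and GA3OX1, which makes active gibberellin, by -1.22 ± 0.27, while GA20OX2, an earlier gibberellin step, was 1.09 ± 0.24 above the mutant and fell to 0.99 without untreated mutant replicate 3. These were the called genes among 28 of gibberellin and brassinosteroid metabolism and response, against 11.3% called either way among all genes. Without treated wild type replicate 3 or untreated mutant replicate 2 the list had 3 higher and 4 lower, without treated wild type replicate 1 or 2 it had 2 higher, and under median scaling 4.

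Of 40 auxin genes, 1 was higher, 3 were lower and 20 lay within 2-fold, against 6.05%, 5.28% and 65.1% of all genes. SAUR9 differed by -1.54 ± 0.33, IAA4 by -1.41 ± 0.31 and GH3.5, an auxin-conjugating enzyme, by 1.19 ± 0.22; GH3.5 fell to 0.95 without untreated mutant replicate 2. IAA6 (AT1G52830) read -1.30, -1.71 and -1.79 in treated wild type, -0.66, -0.83 and -0.24 in the untreated mutant and -6.63, -5.61 and -5.74 in untreated wild type. Both groups stood more than 3 log2 units above every untreated wild-type array, and the call on the difference of -1.02 ± 0.32 was lost without 4 of the 6 arrays, at -1.06 to -0.86. Without untreated mutant replicate 2, 0 auxin genes were higher and 5 lower, and without treated wild type replicate 2, 2 and 2. Leaving out both the dimmest and the brightest array left 0 auxin genes lower and 2 higher, and with slide as a fixed block 1 was lower.

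Of the 3 protochlorophyllide reductase genes, which act in greening, PORB was called higher and PORA and PORC were not called. PORA (AT5G54190), the form of dark-grown seedlings, read 2.31, 2.5 and 3.05 in treated wild type, 3.74, 3.15 and 3.97 in the untreated mutant and -8.58, -7.62 and -7.38 in untreated wild type. It was not well above background on any array of untreated wild type and was high in both other groups; treated wild type differed from the mutant by -1.0 ± 0.34, just under the 2-fold line (adjusted p = 0.0431). PORB (AT4G27440) read 5.16, 5.61 and 5.57 in treated wild type, 4.31, 4.1 and 4.85 in the untreated mutant and 3.57, 3.51 and 3.34 in untreated wild type and was 1.02 ± 0.21 above the mutant; its 5 kept probes gave 0.02 to 1.02, and with any of 4 arrays left out it was 0.86 to 0.97. PORC differed by 0.73 ± 0.14. CHLH, a subunit of magnesium chelatase, GUN4, its activator, and the cyclase gene CRD1 differed by 1.57 ± 0.21, 1.33 ± 0.18 and 1.22 ± 0.22, with treated wild type 0.29, 0.22 and 0.14 from untreated wild type. Of 24 chlorophyll synthesis genes, 4 were higher and 0 lower, against 6.05% and 5.28% of all genes. Under quantile scaling 1 was higher and 1 lower. The higher count was 7 without treated wild type replicate 1, under median scaling or with slide as a fixed block, and 2 without the dimmest and the brightest array.

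Of 45 genes for photosystems, antennae and carbon fixation, 38 were higher in treated wild type than in the mutant, 0 lower and 1 within 2-fold, with a median of 1.21. Among all genes the shares were 6.05%, 5.28% and 65.1%. Of the 38, untreated wild type lay between the other groups for 26, treated wild type for 11 and the mutant for 1. The list's median difference from untreated wild type was 0.098 in treated wild type and -1.14 in the mutant. Treated wild type and mutant did not overlap for 43 of the 45, as for 42.3% of all genes. LHCB2.3 (AT3G27690), an antenna protein of photosystem II, read 4.63, 5.29 and 5.03 in treated wild type, 2.58, 2.97 and 2.26 in the untreated mutant and 4.22, 3.62 and 4.13 in untreated wild type. PRK (AT1G32060), phosphoribulokinase of the Calvin cycle, read 3.71, 3.94 and 3.71 in treated wild type, 2.5, 2.78 and 2.52 in the untreated mutant and 4.50, 4.37 and 4.56 in untreated wild type. LHCB2.3 differed from the mutant by 2.38 ± 0.23 (adjusted p = 4.36e-05) and stood above untreated wild type, and PRK differed by 1.19 ± 0.14 (adjusted p = 0.000168) and stood under it. RBCS1A (AT1G67090), a Rubisco small subunit, read 6.95, 7.48 and 6.8 in treated wild type and 5.26, 6.22 and 5.82 in the untreated mutant, a difference of 1.31 ± 0.24. LHCB and RBCS genes have near-identical copies, so their single values are uncertain.

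The size of this shift moved with signal level and scaling. Of 177 genes with a mean level of 5 or more, 92 were higher and 0 lower, with a median of 1.01, and outside the photosystem list it was 61 of 146 with a median of 0.92. The brightest signal on an array lay between 270666 and 326103 units on all 12 arrays, so the brightest relative level was 8.38 on treated wild type replicate 2 and 5.59 on untreated mutant replicate 1. Under quantile scaling 3 of the 45 photosystem genes were higher and 0 lower, with a median of 0.23 and 40 differences above 0. LHCA1, LHCB4.2, PSBO1, PSBR and PSBW changed sign there without a call. Among the 177 brightest genes the median was 0.01. Without untreated mutant replicate 1 the list's higher count was 21, and without both the dimmest and the brightest array it was 8, with a median of 0.77. The part of the signal ceiling in the photosystem result was not tested. UBQ10, a polyubiquitin gene used as a reference, moved with it: its level differed by 1.36 ± 0.35, and by 0.15 under quantile scaling.

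**Figure D3:**
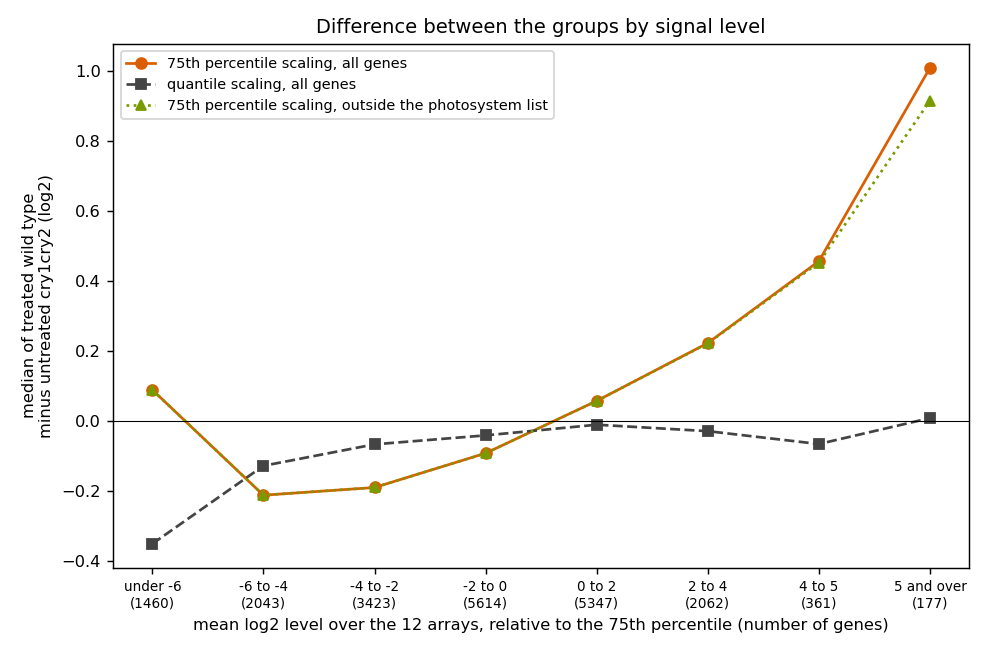
The median log2 difference of treated wild type from untreated cry1cry2 is plotted for genes grouped by their mean level over all 12 arrays. Under 75th-percentile scaling (circles) it is 0.09 in genes under -6 and -0.21 in those between -6 and -4. From there it rises to 1.01 in the 177 genes at 5 or more, also outside the photosystem list (triangles, 0.92). It stays near 0 for bright genes under quantile scaling (squares, 0.01).

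Of 20 photoprotection and carotenoid genes tested, 7 were higher and 0 lower, against 6.05% and 5.28% of all genes. Under quantile scaling 5 were higher. OHP2 (AT1G34000), a one-helix protein of the thylakoid, read 2.75, 2.89 and 3.08 in treated wild type, 1.56, 2.06 and 1.18 in the untreated mutant and 3.64, 3.73 and 3.88 in untreated wild type. CCD4 (AT4G19170), a carotenoid-cleaving dioxygenase, read 1.81, 1.93 and 1.86 in treated wild type, -0.09, 0.83 and 0.01 in the untreated mutant and 2.78, 2.39 and 2.34 in untreated wild type. Both lay between untreated wild type and mutant, 1.31 ± 0.20 and 1.62 ± 0.22 above the latter. NPQ4, which senses excess light, differed by 1.22 ± 0.17 and by 0.69 under quantile scaling.

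Of 43 genes tested for the barrier lipids cutin, suberin and wax, 15 were higher, 5 lower and 15 within 2-fold, against 6.05%, 5.28% and 65.1% of all genes. Without the dimmest and the brightest array the higher and lower counts were 13 and 3. With slide as a fixed block they were 12 and 3, and with normexp 10 and 4. GPAT6 (AT2G38110), a glycerol-phosphate acyltransferase of cutin, read -1.29, -0.82 and -1.54 in treated wild type, -4.82, -4.78 and -4.94 in the untreated mutant and -3.70, -3.35 and -4.01 in untreated wild type. CYP86A1 (AT5G58860), the suberin fatty acid hydroxylase, read 0.87, 0.83 and 0.61 in treated wild type, -2.24, -2.42 and -2.15 in the untreated mutant and -1.20, -1.28 and -1.61 in untreated wild type. MYB93 (AT1G34670), a MYB factor of the root endodermis, read -2.14, -2.15 and -2.05 in treated wild type, -5.28, -6.01 and -5.17 in the untreated mutant and -3.88, -4.24 and -4.35 in untreated wild type. In all 3 genes the treated arrays lay above both DMSO groups, with differences from the mutant of 3.63 ± 0.20, 3.04 ± 0.14 and 3.37 ± 0.20 (adjusted p = 8.84e-07, adjusted p = 2.82e-07 and adjusted p = 1.28e-06).

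ABCG2, a transporter of suberin precursors, differed by 2.31 ± 0.17, ABCG6 by 2.56 ± 0.35, GPAT5 by 2.26 ± 0.22 and MYB67 by 2.78 ± 0.38, which was 0.81 and not called with normexp. Of the 15 higher genes, 14 had untreated wild type between treated wild type and mutant. On cry1cry2 with 3B7N, GPAT6 read -0.86, -1.06 and -0.78, CYP86A1 1.40, 1.5 and 1.36 and MYB93 -1.76, -1.62 and -1.65, every array above the treated wild-type mean.

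The 5 lower genes were WSD1, CER1, MAH1, FAR1 and CER4. WSD1 (AT5G37300), a wax ester synthase, read -3.44, -3.26 and -3.06 in treated wild type, -0.77, -0.93 and -0.63 in the untreated mutant and -8.88, -9.19 and -9.77 in untreated wild type. The treated arrays lay above every array of untreated wild type, where WSD1 was not well above background, and were -2.48 ± 0.28 from the mutant (adjusted p = 0.00013). CER1 (AT1G02205), of alkane synthesis, read 2.79, 2.43 and 2.44 in treated wild type, 3.48, 3.76 and 3.65 in the untreated mutant and -0.60, -0.67 and -0.76 in untreated wild type. Its difference was -1.08 ± 0.15, and under median scaling -0.95. MAH1, an alkane hydroxylase, FAR1 (AT5G22500), a fatty acyl reductase that makes alcohols of suberin, and CER4, a fatty acyl reductase of wax synthesis, differed by -2.23 ± 0.46, -1.40 ± 0.30 and -1.84 ± 0.45.

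Secondary-wall genes had the lowest median of the lists, -1.03. Of 17 tested, 9 were lower, 0 higher and 2 within 2-fold, against 5.28%, 6.05% and 65.1% of all genes. Without the dimmest and the brightest array 5 were lower, with a median of -0.95, and with normexp 5, with a median of -0.68. IRX9 (AT2G37090), of xylan synthesis, read -3.60, -3.72 and -3.45 in treated wild type, -1.88, -2.05 and -2.15 in the untreated mutant and -3.19, -3.63 and -3.36 in untreated wild type. IRX6 (AT5G15630), a COBRA-like wall protein, read -2.57, -2.47 and -2.53 in treated wild type, -1.04, -1.19 and -1.15 in the untreated mutant and -2.57, -2.98 and -2.77 in untreated wild type. Every mutant array was above every array of either wild-type group for both, and the differences were -1.56 ± 0.29 and -1.39 ± 0.26 (adjusted p = 0.00263 and adjusted p = 0.00268). MYB63 and MYB58, regulators of lignin genes, differed by -1.70 ± 0.24 and -1.74 ± 0.37, the secondary-wall regulator MYB46 by -1.69 ± 0.33 and the cellulose synthase gene CESA4 by -1.09 ± 0.25, which was -1.0 and not called without untreated mutant replicate 1; MYB58 and MYB63 were not called with normexp, at -0.48 and -0.65. MYB85 (AT4G22680), a related regulator outside the list, was not well above background on any treated array and was at least 4.49-fold lower there (adjusted p = 0.000664), without a call under normexp.

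**Figure D4:**
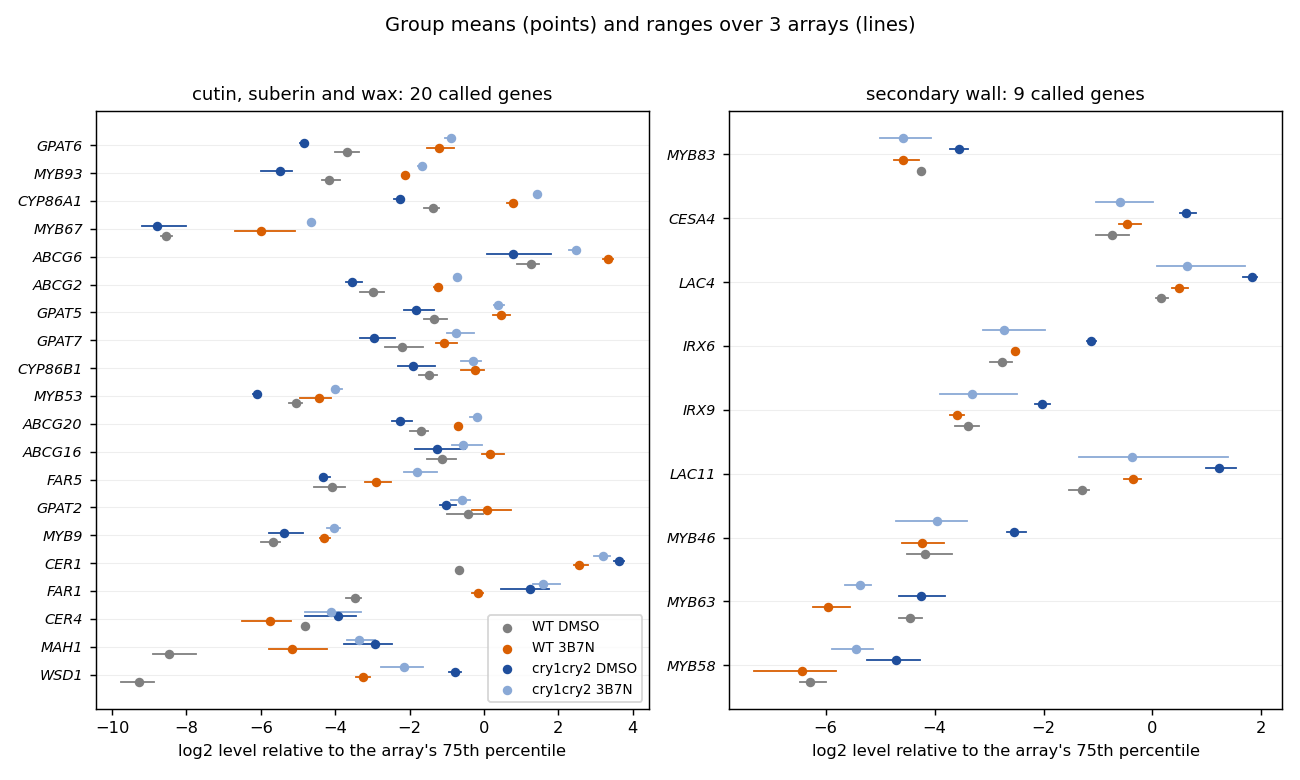
Group means (points) and the range over 3 arrays (lines) of the log2 level are drawn for the 20 called genes of the cutin, suberin and wax list and the 9 of the secondary-wall list. From GPAT6 to MYB9 treated wild type lies to the right of untreated cry1cry2; from CER1 to WSD1, and for all 9 secondary-wall genes, it lies to the left.

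The thaumatin-like genes TLP-3 and PR5 were higher in treated wild type than in the mutant, and their treated arrays lay above both DMSO groups. TLP-3 (AT1G75030), a thaumatin-like protein, read 0.51, 0.81 and 0.22 in treated wild type, -3.54, -3.44 and -3.61 in the untreated mutant and -2.79, -2.71 and -2.93 in untreated wild type. It stood 4.04 ± 0.15 above the mutant (adjusted p = 4.47e-08), and cry1cry2 on 3B7N read 0.44, 0.29 and 0.44. PR5 (AT1G75040), the thaumatin-like pathogenesis marker, read -3.64, -2.41 and -3.86 in treated wild type, -7.38, -7.33 and -7.85 in the untreated mutant and -6.69, -5.93 and -6.09 in untreated wild type. Its difference was 4.21 ± 0.33, but its second kept probe gave 1.1, and with normexp background correction it was not called, at 1.93. These were the 2 called genes among 17 of pathogenesis and salicylate signalling, against 11.3% called either way among all genes.

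Of 34 detoxification genes, 7 were higher, 0 lower and 18 within 2-fold, against 6.05%, 5.28% and 65.1% of all genes. Without the dimmest and the brightest array or with normexp, 4 were higher. GSTU3 (AT2G29470), a glutathione transferase, read -4.85, -4.71 and -5.85 in treated wild type, -7.66, -8.87 and -7.76 in the untreated mutant and -8.85, -8.82 and -8.99 in untreated wild type. Only 1 of 3 mutant arrays had it well above background, and the difference of 2.96 ± 0.36 was 1.05 and not called with normexp. UGT73C1 (AT2G36750), a glucosyltransferase of xenobiotics and cytokinins, read -3.36, -3.81 and -3.78 in treated wild type, -7.91, -9.21 and -7.80 in the untreated mutant and -4.30, -4.13 and -4.1 in untreated wild type. It was low in the mutant alone, on whose arrays it was well above background in 1 of 3, and treated wild type lay 4.66 ± 0.32 above it (adjusted p = 2.95e-06). CYP81D8, a cytochrome of stress responses, and DTX1, a multidrug efflux carrier, differed by 1.65 ± 0.33 and 1.65 ± 0.25.

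Other genes far above the mutant were CYP707A2 (AT2G29090), which inactivates abscisic acid, at -1.38, -1.90 and -1.57 in treated wild type, -4.69, -4.28 and -4.53 in the untreated mutant and -2.30, -2.63 and -2.43 in untreated wild type, and YLS9 (AT2G35980), a leaf senescence and defence marker, at 0.25, 0.54 and 0.04 in treated wild type, -2.34, -3.24 and -2.66 in the untreated mutant and -1.5, -1.55 and -1.52 in untreated wild type. In both the treated arrays lay above both DMSO groups, 2.88 ± 0.17 and 3.03 ± 0.21 from the mutant. The terpene synthase gene TPS-CIN, PDLP4 and the cytochrome gene CYP71A22 were also higher, by 3.04 ± 0.22, 3.09 ± 0.30 and, with no mutant array well above background, at least 5.9-fold. RK2 was at least 3.58-fold higher.

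The 10 genes furthest under the mutant, among those with a symbol and no overlap, all had untreated wild type between the other groups. SAG29 (AT5G13170), a sugar carrier that rises in senescence, read -6.15, -6.01 and -4.99 in treated wild type, -0.62, -1.07 and -0.40 in the untreated mutant and -3.88, -3.87 and -3.45 in untreated wild type. All 3 groups were separate, and the difference from the mutant was -5.02 ± 0.29 (adjusted p = 9.91e-07). NDB3 (AT4G21490), an external NADH dehydrogenase of mitochondria, read -4.72, -5.35 and -4.68 in treated wild type, -0.95, -0.92 and -0.85 in the untreated mutant and -3.74, -3.56 and -3.46 in untreated wild type, a difference of -4.01 ± 0.20. PAP20 (AT3G52780), a purple acid phosphatase, read -4.92, -4.76 and -4.74 in treated wild type, -0.80, -1.51 and -0.82 in the untreated mutant and -3.34, -2.78 and -3.01 in untreated wild type, a difference of -3.76 ± 0.20 (adjusted p = 6.29e-07). In these genes the mutant was raised above untreated wild type, by 3.03, 2.68 and 2.0, and treated wild type was under it, by -1.98, -1.33 and -1.76.

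GH9B15 (AT4G23560), an endoglucanase, read -8.98, -3.33 and -3.62 in treated wild type, 2.06, 1.91 and 2.32 in the untreated mutant and -1.42, -1.03 and -0.77 in untreated wild type; replicate 1 stood far under the other treated arrays, and 2 of 3 were well above background. The difference of -7.41 ± 1.11 had a wide interval, -9.83 to -4.98, and another of its probes gave -5.61. CEP1, a cysteine endopeptidase of cell death, and HEC3, a bHLH factor, differed by -4.53 ± 0.54 and -3.92 ± 0.55, each with 1 of 3 treated arrays well above background, as was PR-1-LIKE at -3.95 ± 0.24. CKX2 (AT2G19500), which degrades cytokinins, was not well above background on any treated array and was at least 7.13-fold lower (adjusted p = 8.72e-06), and GH9B14 at least 5.81-fold.

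HB1 (AT2G16060), the non-symbiotic haemoglobin that scavenges nitric oxide, read -1.17, -1.94 and -1.90 in treated wild type, 1.69, 1.95 and 1.97 in the untreated mutant and -0.52, 0.21 and 0.71 in untreated wild type. Treated wild type was the lowest and the mutant the highest group, -3.54 ± 0.30 apart (adjusted p = 1.63e-05), and cry1cry2 on 3B7N read 0.31, 0.61 and 0.93. ACS5 (AT5G65800), an ethylene synthesis enzyme, read -7.21, -5.75 and -6.15 in treated wild type, -3.50, -4.16 and -2.85 in the untreated mutant and -6.58, -6.29 and -7.19 in untreated wild type. Untreated wild type overlapped treated wild type, where 1 of 3 arrays had it well above background, and the difference from the mutant was -2.87 ± 0.45 (adjusted p = 0.00106). UPOX, a mitochondrial stress marker, was -2.15 ± 0.27 from the mutant.

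For some genes treated wild type went further than the mutant in the same direction. On the high side UGT71B8 (AT3G21800) read -3.46, -4.03 and -3.65 in treated wild type, -5.87, -5.08 and -5.74 in the untreated mutant and -7.07, -6.25 and -7.11 in untreated wild type and the seed protein gene EM1 (AT3G51810) 1.92, 0.75 and 0.90 in treated wild type, -0.53, 0.33 and -0.67 in the untreated mutant and -2.92, -0.94 and -2.95 in untreated wild type. They stood 1.85 ± 0.27 and 1.48 ± 0.50 above the mutant, and the EM1 call was lost without 5 of the 6 single arrays. SCPL19, ATOEP16-2, ERF53 and PRK1 differed by 1.83, 1.51, 1.22 and 1.24, of which ERF53 and PRK1 fell to 0.99 and 0.93 without untreated mutant replicate 1 and SCPL19 lost its call without treated wild type replicate 2 or untreated mutant replicate 3, at 1.54 and 1.39. On the low side RL4 (AT2G18328), a small MYB-related gene, read -5.80, -4.27 and -4.37 in treated wild type, -3.27, -3.89 and -3.26 in the untreated mutant and -1.1, -0.32 and -0.66 in untreated wild type. It differed by -1.34 ± 0.39, by -0.85 without treated wild type replicate 1 and by -0.74 within slide 2. AST56 (AT1G77990), a sulfate transporter, read -5.62, -5.92 and -5.55 in treated wild type, -4.42, -4.73 and -4.48 in the untreated mutant and -3.48, -3.55 and -3.34 in untreated wild type, a difference of -1.15 ± 0.15 that was -0.30 with normexp. MYB28, the regulator of aliphatic glucosinolates, was at least 1.25-fold lower, with no call without untreated mutant replicate 3.

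**Figure D5:**
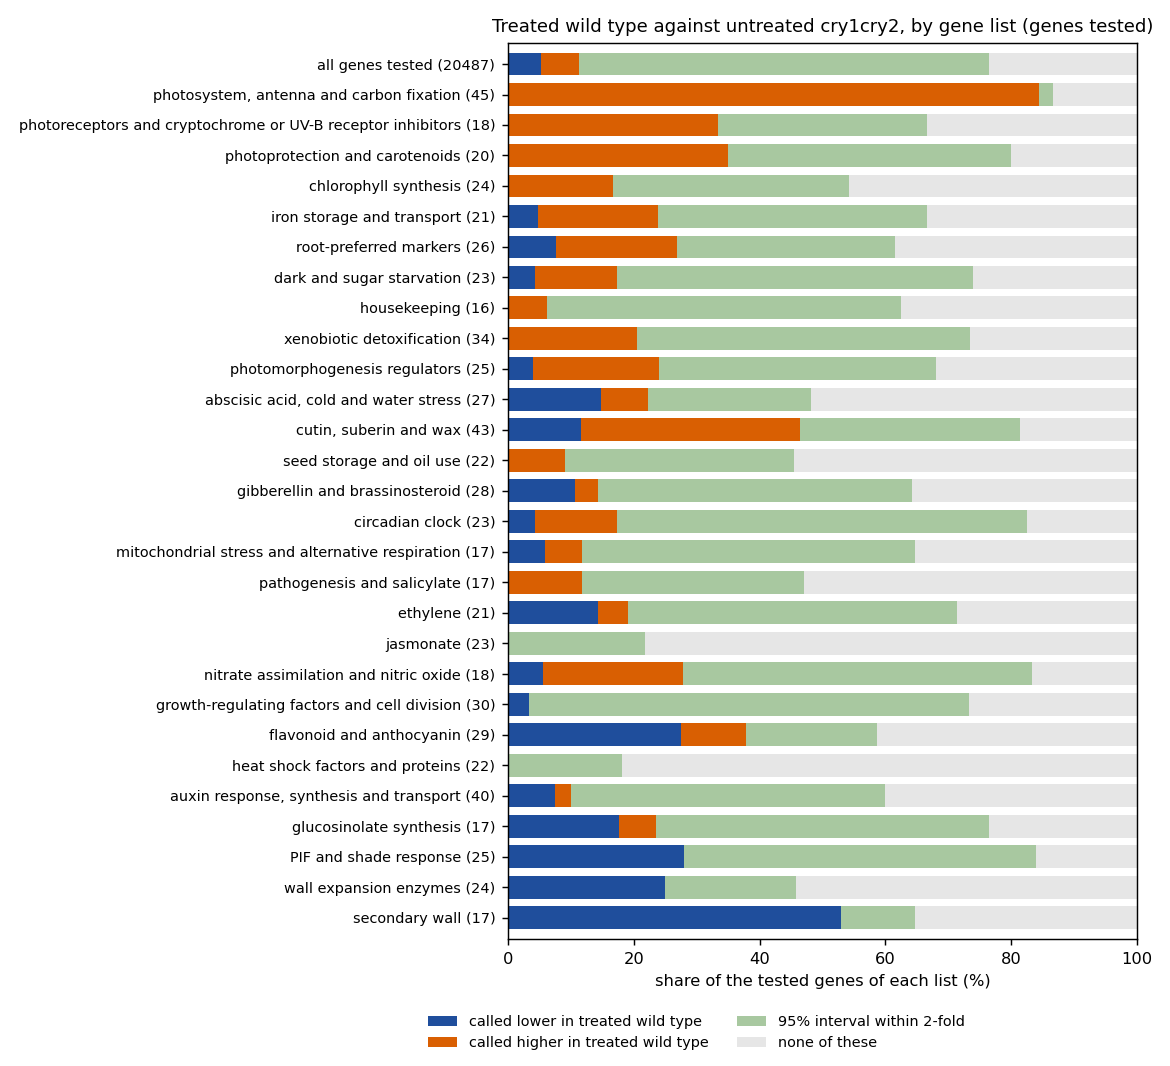
Bars give the share of the tested genes of each list (number in brackets) that were called lower (blue) or higher (orange) in treated wild type than in untreated cry1cry2, lay within 2-fold by their 95% interval (green) or met none of these (grey), ordered by median difference with all genes at the top. The photosystem list, with 38 of 45 higher, and the secondary-wall list, with 9 of 17 lower, are at the ends.

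Further lists are read against the 6.05% higher and 5.28% lower among all genes. Of 23 clock genes, 3 were higher and 1 was lower: LHY (AT1G01060), a morning clock factor, read -1.11, -1.40 and -1.34 in treated wild type, -2.78, -2.60 and -2.66 in the untreated mutant and 1.49, 0.28 and 0.92 in untreated wild type and was 1.40 ± 0.24 above the mutant (adjusted p = 0.00172), LNK2 was 1.27 ± 0.26 and RVE1 1.23 ± 0.31 above it, and PRR3 -1.23 ± 0.26 under it. Without untreated mutant replicate 2 the higher count of clock genes was 6, and RVE1 fell to 0.98 without untreated mutant replicate 1. Of 18 nitrate and nitric oxide genes, 4 were higher and 1, HB1, was lower; among them were the glutamate synthase gene GLU1 (1.34 ± 0.22), GLN2 (1.28 ± 0.20), LBD37 (1.04 ± 0.19) and NIA2 (1.0 ± 0.26), of which GLN2, LBD37 and NIA2 were not called under quantile scaling, at 0.35, 0.86 and 0.17. Under that scaling the list had 1 higher and 2 lower. The higher count was 2 without treated wild type replicate 2 or untreated mutant replicate 1.

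Of 23 starvation genes, 3 were higher and 1 was lower, SEN1 at 1.0 ± 0.27, DIN10 at 1.1 ± 0.25, TPS11 at 1.31 ± 0.24 and DIN11 at -1.32 ± 0.43. The DIN11 call was lost without any of 4 arrays (treated wild type replicate 2 or 3, untreated mutant replicate 1 or 3), and under quantile scaling, with normexp, with no filter and with slide as a fixed block. Without untreated mutant replicate 2 the higher count was 6, without treated wild type replicate 2 or untreated mutant replicate 1 it was 1, and under quantile scaling 0. Of 27 abscisic acid and cold genes, 2 were higher and 4 lower, with CYP707A2 at the top and RD29A (AT5G52310), a dehydration marker, at -1.29 ± 0.21; ABI3, KIN2 and NCED9 were also lower. The lower count was 2 without treated wild type replicate 1 or untreated mutant replicate 2, under median scaling and with slide as a fixed block, and the higher count was 1 without treated wild type replicate 2 or untreated mutant replicate 1 and under quantile scaling. Of 21 ethylene genes, 1 was higher, ACS2 at 1.18 ± 0.17, and 3 were lower, with ACS5 the furthest; without treated wild type replicate 3 or untreated mutant replicate 1 2 were higher and 2 lower. Of 17 glucosinolate genes, UGT74C1 was higher and MYB34, BAT5 and MYB28 were lower, MYB34 at -1.70, BAT5 at -1.39 and MYB28 only as the bound above; 1 was lower with normexp, with slide as a fixed block and without the dimmest and the brightest array.

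Of 30 growth-regulating factor and cell-division genes, 21 lay within 2-fold and 1 was called, against 65.1% and 11.3% of all genes. GRF7 (AT5G53660) read -1.93, -2.83 and -1.35 in treated wild type, -0.30, -0.50 and -0.14 in the untreated mutant and -6.65, -6.94 and -6.68 in untreated wild type; it stood more than 3 log2 units above untreated wild type and -1.72 ± 0.29 from the mutant. Without untreated mutant replicate 2 the list had 1 higher and 3 lower, without treated wild type replicate 1 2 lower and without treated wild type replicate 2 1 higher. Of 17 genes of mitochondrial stress, NDA1 was higher and UPOX lower; 2 were higher without untreated mutant replicate 2 or 3, and 2 lower without treated wild type replicate 1 or untreated mutant replicate 3. For jasmonate, 0 of 23 were called by limma, 3 had an unadjusted p under 0.05 and 5 lay within 2-fold, and the vegetative storage genes VSP1 and VSP2 were 0.72 ± 0.16 and 0.73 ± 0.18 above the mutant, under the 2-fold line; 1 was higher under median scaling and without treated wild type replicate 1 or 3. Of 22 seed and oil genes, the glyoxylate-cycle gene ICL (1.07 ± 0.24) and EM1 were higher; ICL was 0.27 under quantile scaling, and without treated wild type replicate 2 or untreated mutant replicate 1 0 were higher. Of 16 reference genes, UBQ10 was higher and 9 lay within 2-fold; 3 were higher without untreated mutant replicate 2, 0 without untreated mutant replicate 1 or treated wild type replicate 2, and their median, 0.41, was -0.17 under quantile scaling.

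Markers of tissues were checked in all 6 seedling samples. The green-tissue markers LHCB1.1, LHCB2.1, RBCS1A and RCA were well above background on every array and were higher in treated wild type, by 1.42, 1.80, 1.31 and 1.76. Under quantile scaling LHCB2.1 was still called, at 1.80, and LHCB1.1, RBCS1A and RCA were not, at 0.19, 0.10 and 0.83. Root markers were present too. Of 26 tested, 5 were higher and 2 lower, against 6.05% and 5.28% of all genes. The root-hair expansin EXPA7 (AT1G12560) read -2.22, -2.35 and -2.31 in treated wild type and -3.91, -3.50 and -4.13 in the untreated mutant (1.55 ± 0.24). The thalianol synthase THAS (AT5G48010) read -6.05, -5.71 and -5.38 in treated wild type and -3.50, -3.62 and -3.63 in the untreated mutant (-2.13 ± 0.18). EXPA18, RHS12, RHS19 and COBL9, all of root hairs, were higher by 1.04 to 1.56. For all 5 higher genes the treated wild-type mean lay above the mutant's and under that of untreated wild type. PIN2, of root tips, and CASP1, of the endodermis, differed by 0.69 and 0.73, under the 2-fold line. THAD, a later enzyme of the thalianol pathway, differed by -1.1 and lost its call without treated wild type replicate 1 or untreated mutant replicate 2. With normexp 1 root marker was higher and 0 lower, and with slide as a fixed block 3 and 1. The mean level of the 26 genes of the root list was -1.10 to -1.07 on the treated wild-type arrays. It was -1.54 to -1.30 on those of the mutant and -1.47 to -1.39 on those of untreated wild type. The list as drawn up also holds RCD1, which is not a root marker. The part of root tissue in the suberin result was not tested.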

How the data were processed

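Total RNA of 12 seedling samples, 3 in each of 4 groups, was hybridised to one-colour arrays. Per the file headers, the authors extracted spots with Agilent Feature Extraction 10.7.3.1 on a TAIR10 design; the values taken were each spot's processed signal, an intensity with background and spatial trend removed by the authors' software and no scaling between arrays. A total of 49 of 43603 non-control probes was dropped for outlier flags, replicate spots were averaged, and log2 intensity was set relative to each array's 75th percentile. Probes well above background on all 3 arrays of any of the 4 groups were kept (28504). RefSeq accessions joined 34348 probes to loci, and the brightest kept probe stood for each of 20487 genes; 6170 had several kept probes.

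Limma 3.58.1 in R 4.3.3 fitted 4 group means to all 12 arrays, and p-values were adjusted over all genes by the Benjamini-Hochberg method. A gene not well above background in a group has only a bound, against the lowest signal well above background there. Correlations between arrays of a group were 0.979 to 0.993. The fit was tested on simulated data. Arrays give no counting depth, and their number limits the precision. Coordinates are not given, as no genome of the files' build was used here.

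The members and gene lists were chosen with earlier results of these data known. Named genes were the 10 largest called differences each way among symbols without overlap, the 6 highest and lowest of each position and of those reaching the mutant, the 4 of smallest adjusted p in each list, all of a list's calls where 5 or fewer, and signalling and reference genes. RUP2, PHOT2, ZTL, MYB75, DFR, MYB111, TT5, PIL1, XTH17, ABCG6, GPAT5, MYB67, MYB46, MYB58, CESA4, MYB9, PAL2, C4H, 4CL3, PORC, CRA1, SESA1, the reversed photosystem genes, the tissue markers and the neighbours of CRY1 and CRY2 were named after their values were seen. Alternatives changed the scaling, background correction, filter, slide, probe rule, arrays and threshold. The authors' fold-change list was not used here.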

Additional observations from a re-analysis of the deposited data

How the results depend on the processing

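The 13343 genes within 2-fold kept within 1.5 times of that count under every alternative run. Counts of called genes moved more, and the cause was not tested except where fewer arrays or another threshold made it. With normexp background correction 628 genes were higher and 415 lower, 457 had treated wild type between, 107 the mutant and 479 untreated wild type. By adjusted p alone 3178 were higher and 2993 lower, and the 3 positions held 2331, 1079 and 2761. With no filter on dim probes 2690 were higher and 1036 lower, and untreated wild type lay between for 2361. The median of all genes was then 0.13, so the dim genes let in leaned to the higher side. With slide as a fixed block the mutant lay between for 185 and untreated wild type for 716, of 1034 higher and 831 lower. Within slide 2 alone, chosen after the slides were known, 492 were higher and 424 lower. Without the dimmest and the brightest array, chosen after seeing the data, 622 were lower, and the mutant lay between for 155 and untreated wild type for 651. The split of calls depended on scaling, filter and background correction. In the reported setting 53.4% were higher. The share was 65.9% under median scaling, which shifted the median of all genes to 0.12, and 47.2% under quantile scaling. With the scaling kept it was 72.2% with no filter and 60.2% with normexp. Leaving out single arrays gave 1055 to 1445 higher, 757 to 1307 lower, 12051 to 13331 within 2-fold (up to 13407 without an array of untreated wild type), and 793 to 1043, 214 to 349 and 805 to 1381 in the 3 positions. Under quantile scaling LHCA1 (-0.016), LHCB4.2 (-0.081), PSBO1 (-0.015), PSBR (-0.12) and PSBW (-0.038) reversed; no other list or named gene reversed under the alternatives run, and 56 lost their call there. Most calls were lost within slide 2 alone, 130, and without the dimmest and the brightest array, 80; 56 were lost with normexp. Replicate numbers did not pair the samples: same-numbered arrays correlated by -0.17, 0.14 and 0.08 in their deviations, and with a replicate block 1224 were higher, 1079 lower, 13394 within 2-fold, and 935, 283 and 1085 in the 3 positions. Dim genes have the least precision, with 34 higher genes not well above background in the mutant and 104 lower ones not in treated wild type.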

Other observations

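Some neighbours of both receptor genes were also far lower on the cry1cry2 arrays. Near CRY2, AT1G04420 read 1.45, 1.60 and 1.97 in treated wild type, -11.50, -9.92 and -9.79 in the untreated mutant and -10.19, -10.47 and -10.23 in cry1cry2 on 3B7N, and it was at least 863-fold higher in treated wild type. c-NAD-MDH1 (AT1G04410), a cytosolic malate dehydrogenase also near CRY2, read 3.39, 3.32 and 3.00 in treated wild type and -3.61, -3.34 and -3.38 in the untreated mutant, a difference of 6.68 ± 0.19, the smallest among its 4 kept probes. Near CRY1, ARGAH1 (AT4G08900), an arginase, read -1.41, -1.38 and -1.39 in treated wild type and -11.49, -9.90 and -9.80 in the untreated mutant and was at least 103-fold higher, and AT4G08910 at least 5.6-fold. No mutant array had AT1G04420, ARGAH1 or AT4G08910 well above background. Among the 5 tested genes on each side, 2 of 10 around CRY1 and 4 of 10 around CRY2 were called higher and 0 lower, against 6.05% higher among all genes. The other called genes near CRY2, AT1G04350 and AT1G04360, differed by only 1.86 ± 0.23 and 1.74 ± 0.17. AT1G04360 was not low on every cry1cry2 array. With 3B7N it read 0.08, 0.16 and -0.14 there, against -0.25, 0.01 and -0.38 in untreated wild type.

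Heat shock genes varied between arrays of one group. HSP21 (AT4G27670), a chloroplast small heat shock protein, read -5.49, -5.21 and -6.02 in treated wild type and -3.91, 0.64 and -4.82 in the untreated mutant. HSP22 (AT4G10250), of the endoplasmic reticulum, read -2.41, -2.44 and -2.95 in treated wild type and -1.64, 2.33 and -2.03 in the untreated mutant. HSP70 (AT3G12580), a cytosolic chaperone, read 4.76, 5.84 and 4.25 in treated wild type and 2.88, 5.67 and 2.22 in the untreated mutant. Untreated mutant replicate 2 stood above both other mutant arrays for all 3 genes, and the mean level of 22 heat shock genes was 1.86 on it, against -0.74 and -1.19 on the other 2. Of these 22, 0 were called by limma and 2 had an unadjusted p under 0.05, and without that array 4 were higher.

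Seed storage genes varied in the same way. CRA1 (AT5G44120), a cruciferin, read 1.98, -2.42 and 1.48 in treated wild type, -2.25, 0.10 and 0.56 in the untreated mutant and -3.40, 1.33 and -3.65 in untreated wild type, a difference of 0.88 ± 1.42 (adjusted p = 0.663). In each of these 3 groups 1 array stood apart from the other 2 by more than 2 log2 units. SESA1 (AT4G27140), an albumin, read -9.18, -7.45 and -8.57 in treated wild type and -8.60, -5.49 and -5.94 in the untreated mutant and was well above background on no treated array.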
